A study of Rattus norvegicus with 9 samples.

Results

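The Wnt pathway was examined in the liver transcriptome of rats exposed to lethal total-body irradiation (TBI). The members were every Wnt ligand and Frizzled receptor whose symbol could be assigned to a probe by its RefSeq transcript, together with a fixed set of co-receptors, receptor turnover genes, secreted antagonists, Dishevelled genes, genes of the destruction complex, β-catenin and TCF/LEF factors. They came to 37 genes with 46 probes, of 13438 genes that could be named on an array of 41012 probes. No probe was matched for another 12 genes of the rule, namely Fzd7, Fzd8, Fzd10, Lrp6, Sfrp1, Tcf7, Tcf7l2, Wnt2, Wnt2b, Wnt3a, Wnt16 and Znrf3, which were therefore not analysed here.

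Livers were taken from male Wistar rats, with no genetic modification named, in 3 groups of 3 rats. The control rats were not irradiated. The TBI rats received 6.5 Gy from a 60Co source at 2 Gy per min. The HSC + TBI rats received Hong Shan Capsule (HSC), a crude drug made of medicinal herbs, by stomach tube on 3 days in a row before the same exposure, at a dose that the sample labels give as 30 mg/kg per day and the series' design as 10 g/kg per day. RNA was measured 24 h after exposure on 9 one-colour arrays, and the age of the rats was not given in the sources used here. No group received HSC without irradiation.

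Wnt proteins are secreted lipid-modified ligands. They bind a Frizzled receptor together with the co-receptor Lrp5 or Lrp6, and the signal passes through Dishevelled to a destruction complex built on Axin and Apc, in which Gsk3b marks β-catenin for breakdown. When that complex is held back, β-catenin enters the nucleus and acts with TCF/LEF factors on target genes such as Axin2, Lgr5 and Rnf43. In the liver the pathway is known above all for setting the gene programme of hepatocytes around the central vein, with ligands that come largely from endothelial cells there.

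RefSeq promoters (GRCr8) were at hand for 27 of the 37 genes, and the 250 bases before the start are shown for Axin2, Rnf43 and Wnt7a, whose values are described in full below. Axin2 and Rnf43 are textbook targets of the pathway and Wnt7a is a ligand. The letters CTTTGA and CTTTGT, the core bound by TCF/LEF factors, were searched on both strands, overlapping matches were allowed, and a match is in capitals. The Axin2 window is chr10:94398535-94398784 on the + strand, the Rnf43 window chr10:72963116-72963365 on the + strand and the Wnt7a window chr4:125466150-125466399 on the − strand, each printed 5′ to 3′ along its gene.
Axin2: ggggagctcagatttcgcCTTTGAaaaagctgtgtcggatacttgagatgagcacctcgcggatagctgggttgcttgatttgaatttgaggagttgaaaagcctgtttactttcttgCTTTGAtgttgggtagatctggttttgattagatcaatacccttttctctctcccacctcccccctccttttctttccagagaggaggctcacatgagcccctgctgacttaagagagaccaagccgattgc
Rnf43: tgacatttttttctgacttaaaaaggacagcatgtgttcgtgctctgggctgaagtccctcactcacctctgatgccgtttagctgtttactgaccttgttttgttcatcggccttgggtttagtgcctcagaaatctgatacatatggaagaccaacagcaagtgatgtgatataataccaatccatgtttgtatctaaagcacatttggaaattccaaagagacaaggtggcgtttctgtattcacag
Wnt7a: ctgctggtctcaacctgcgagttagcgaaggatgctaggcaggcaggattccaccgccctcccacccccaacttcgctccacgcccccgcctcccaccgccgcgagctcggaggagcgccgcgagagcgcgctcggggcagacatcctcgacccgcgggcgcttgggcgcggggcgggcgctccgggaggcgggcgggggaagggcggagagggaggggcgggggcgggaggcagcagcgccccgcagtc
The Axin2 window held CTTTGA at 2 places, which begin 232 and 132 bases before the start. No match was found in the Rnf43 and Wnt7a windows. A match was present in 5 of the 27 promoters (18.5%), against 27.5% of all 33469 promoters, of which 13.9% held CTTTGA and 16.3% held CTTTGT. These matches are a description of the sequence and no measure of binding.

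Values are log2 signals after quantile normalization, and limma tested the probes that stood above background throughout at least 1 of the groups, in all 3 of its arrays. A probe was called when its adjusted p was below 0.05 over all 25369 tested probes and its fold change was at least 1.5. Probe brightness differs with sequence, so levels were compared between rats and never between genes. Control arrays shared 1 slide and TBI arrays another, HSC + TBI 1 and 3 shared a further slide, and HSC + TBI 2 was on a slide of its own, so that slide and treatment cannot be told apart. On all probes together, 56.6% to 59.3% were above background in control, 63.6% to 69.5% in TBI and 58.7% to 60.5% in HSC + TBI, with TBI 3 the highest. The part of this difference in the results was not tested.

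Much of the pathway was dim in these livers. Of the 46 probes, 17 were above background on all 9 arrays, 22 (20 genes) were tested and 18 were on no array. The genes with no probe above background on any array were the ligands Wnt5a, Wnt8a, Wnt8b, Wnt9b, Wnt10a, Wnt10b and Wnt11, the receptors Fzd3, Fzd6 and Fzd9, the secreted antagonist Sfrp4 and the nuclear factor Lef1, 12 in all. The probes on no array lay between 1.12 and 3.79 on the log2 scale.

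Of the 19 ligand probes, 5 were tested. On each control array 3 of the 19 ligand probes were above background, on the TBI arrays 5, 8 and 7, and on each HSC + TBI array 4. Every TBI array thus had more ligand probes above background than any other array. A dimmer signal counted as above background on the TBI arrays. The lowest such log2 value was 3.13, 2.81 and 2.51 in TBI, 3.68 to 3.97 in control and 3.56 to 3.66 in HSC + TBI. The summed signal of the ligand probes overlapped, at 228.9 to 281.9 in control, 259 to 284.8 in TBI and 214.1 to 272.7 in HSC + TBI. The mean log2 signal of the same 19 probes did not overlap, at 2.57, 2.53 and 2.65 in control and 2.77, 2.98 and 2.72 in TBI. Its highest HSC + TBI value was 2.71, below every TBI array. Of these 19 probes, 10 were above background on no array, so that dim signals weigh in this mean. Since dimmer signals counted in TBI, the counts above background are no measure of ligand level. The same direction was seen over all 46 probes, with 17 to 20 above background in control, 23 to 26 in TBI and 20 to 21 in HSC + TBI, and over the whole array as given above. There were 6 probes above background on some TBI array that were above it on no control and no HSC + TBI array and were too rarely so to be tested. They belonged to Wnt3, Wnt5b, Wnt6, Wnt9a, Fzd5 and Dkk1, and only Wnt6 was above background on 2 TBI arrays.

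**Figure D1:**
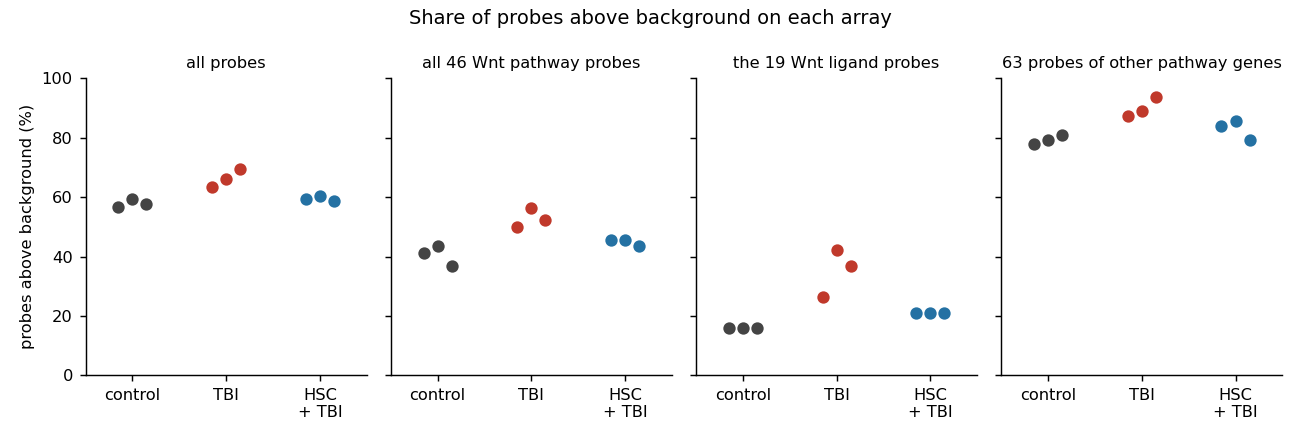
Share of probes above background on each array (%), by group, for all 41012 probes, the 46 Wnt pathway probes, the 19 Wnt ligand probes and the 63 probes of other Wnt pathway genes. Each point is 1 rat, and in every panel the 3 TBI arrays lie above the 3 control arrays, with ligand probes at 5 to 8 of 19 in TBI and 3 of 19 in control. Dimmer signals counted as above background on the TBI arrays than on the others.

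TBI was compared with control to ask how irradiation alone altered the pathway. Fzd2, a Frizzled receptor, and Lrp5, the co-receptor, were up-regulated, and no tested member was down-regulated. These 2 calls among 22 tested probes (9.09%) stand beside 7.25% called in either direction over all tested probes (3.54% higher), so the share of the pathway was near that of the whole array. Fzd2, Lrp5 and Wnt7a were picked out by the study on these same rats, so that their values are no independent evidence of direction. The median log2 fold change of the 22 probes was 0.11, with 15 above 0, against -0.01 over all tested probes, and it was 0.04 over the 17 probes above background on every array.

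Fzd2 gave 5.77, 5.99 and 5.83 in the control rats, 6.77, 7.87 and 7.38 in the TBI rats and 6.55, 7.65 and 6.34 in the HSC + TBI rats. All 6 irradiated rats lay above all 3 controls, and the TBI and HSC + TBI rats overlapped. The fold change in TBI vs control was 2.78 (log2 1.47 ± 0.37 SE, 95% interval 0.64 to 2.31, limma adjusted p = 0.0445). In HSC + TBI vs control the log2 fold change was 0.98 ± 0.37 (95% interval 0.15 to 1.82, limma adjusted p = 0.187), and in HSC + TBI vs TBI it was -0.49 ± 0.37 (95% interval -1.32 to 0.34, adjusted p = 0.548). Neither of these passed the test, and an interval this wide holds no change as well as a marked one between HSC + TBI and TBI.

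Lrp5, which forms the signalling complex with Frizzled, gave 7.38, 7.46 and 7.74 in control, 7.98, 8.39 and 8.14 in TBI and 7.70, 7.53 and 7.85 in HSC + TBI. The TBI rats lay above every rat of the other groups, and the HSC + TBI rats overlapped the controls. Lrp5 rose 1.56-fold in TBI vs control (log2 0.65 ± 0.16 SE, 95% interval 0.29 to 1.0, limma adjusted p = 0.0426). The log2 fold change was 0.17 ± 0.16 in HSC + TBI vs control (limma adjusted p = 0.607) and -0.48 ± 0.16 in HSC + TBI vs TBI (unadjusted p = 0.0152 in the same fit across all probes, limma adjusted p = 0.195).

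Both calls lay close to the threshold. With only the control and TBI arrays in the fit Lrp5 was not called (limma adjusted p = 0.0873), while Fzd2 was (adjusted p = 0.0372) and Wnt7a was too (adjusted p = 0.0496). Fzd2 was called in 3 of the 9 fits that left out 1 array and Lrp5 in 1, with log2 fold changes from 1.21 to 1.76 and from 0.53 to 0.75 and limma adjusted p up to 0.125 and 0.117. Fzd2 was called only without TBI 1, HSC + TBI 2 or HSC + TBI 3, and Lrp5 only without TBI 1. Normexp background correction was run with an offset of 50, which is added to every signal and by itself shrinks the fold changes of dim probes. With it the log2 fold changes were 0.70 for Fzd2 (limma adjusted p = 0.0731) and 0.37 for Lrp5 (adjusted p = 0.0384, below the fold of 1.5). Neither was called. The parts of the offset and of the background correction in the normexp values were not told apart.

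**Figure D2:**
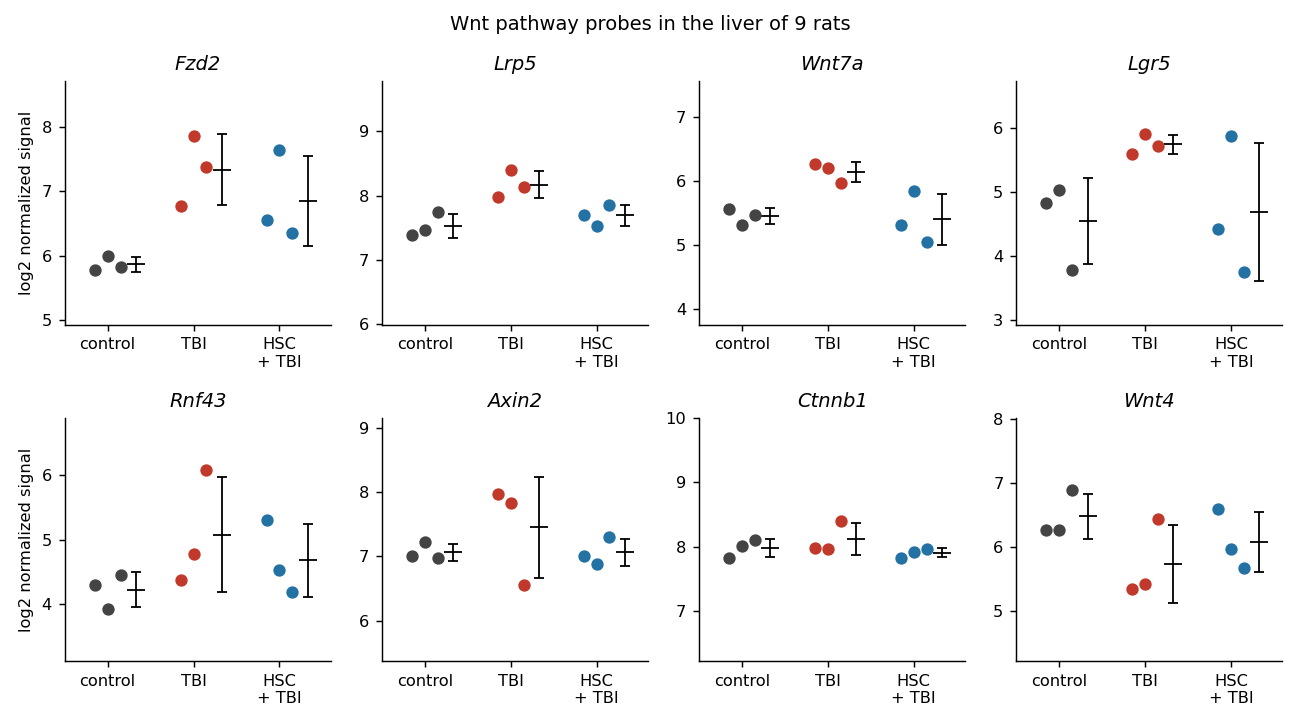
log2 normalized signal of 8 Wnt pathway genes (brightest tested probe of each) in the 3 control, 3 TBI and 3 HSC + TBI rats. Points are rats, bars are the mean ± SD (n = 3) and every panel spans the same range on the log2 scale. Fzd2 and Lrp5 lie higher in all TBI rats than in all controls, and Axin2, Rnf43 and Wnt4 have 1 TBI rat, TBI 3, apart from the other 2.

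Among the ligands, Wnt7a gave 5.56, 5.31 and 5.47 in control, 6.26, 6.20 and 5.96 in TBI and 5.31, 5.84 and 5.05 in HSC + TBI. The TBI rats lay above all other rats and the remaining groups overlapped. The differences did not pass the test, at 0.69 ± 0.20 in TBI vs control (limma adjusted p = 0.0696) and -0.74 ± 0.20 in HSC + TBI vs TBI (adjusted p = 0.135), with -0.05 ± 0.20 in HSC + TBI vs control (adjusted p = 0.928). With normexp the TBI vs control value of Wnt7a was 0.26 (limma adjusted p = 0.0283, below the fold of 1.5). A further 2 Wnt7a probes were above background on no array and gave no reading of the gene.

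Wnt1, a canonical ligand, gave 3.71, 3.50 and 4.11 in control, where it was not well above background on any array, and 4.93, 4.63 and 4.01 in TBI, where it was above background on all 3. The groups overlapped, with TBI 3 below control 3. The difference was not called (limma adjusted p = 0.102), with a log2 fold change of 0.75 (95% interval, without adjustment, 0.19 to 1.32). The measured means of 3.77 in control and 4.52 in TBI gave 1.69-fold. With dim control values raised to the lowest signal above background on their array, the fold was 1.52. Wnt1 passed the filter on brightness through its TBI arrays alone, so that its direction supports nothing. The HSC + TBI values of Wnt1 were 4.37, 4.07 and 4.12. Wnt7b, likewise above background on no control array and on all TBI arrays, gave 4.72, 4.76 and 3.54 in TBI (limma adjusted p = 0.394).

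The means of Wnt4 and Wnt5b were lower in TBI than in control, and neither difference passed the test. Wnt4 gave 6.28, 6.27 and 6.89 in control, 5.35, 5.43 and 6.45 in TBI and 6.60, 5.98 and 5.68 in HSC + TBI (TBI vs control -0.74 ± 0.35, limma adjusted p = 0.227). Wnt5b, a ligand known for β-catenin-independent signalling, differed by -0.36 ± 0.18 in TBI vs control (limma adjusted p = 0.241), and its second probe was above background on 1 TBI array only. Of the 3 ligand probes above background on all 9 arrays, those of Wnt4, Wnt5b and Wnt7a, 1 was higher and 2 were lower in TBI, and none was called.

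The other Frizzled receptors that could be tested were Fzd1 and Fzd4. Fzd1 was nearly level, with log2 fold changes between -0.03 and 0.04 in the 3 comparisons and 95% intervals within -0.49 to 0.50. Fzd4, the receptor through which endothelial cells respond to norrin, gave 4.48, 4.43 and 3.87 in control, 4.67, 4.93 and 4.34 in TBI and 4.77, 4.88 and 4.53 in HSC + TBI. The HSC + TBI rats lay above all controls, but the difference of 0.46 ± 0.21 was not called (limma adjusted p = 0.273). Fzd4 was above background on 2 control arrays and on every irradiated one. It passed the filter on brightness through the irradiated groups alone, so that its direction supports nothing.

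Lgr5 and Rnf43 control how long Frizzled stays at the cell surface, Rnf43 as the ubiquitin ligase that removes it and Lgr5 as a receptor for the R-spondins that restrain this removal. Lgr5 gave 4.82, 5.02 and 3.78 in control, 5.59, 5.90 and 5.72 in TBI and 4.43, 5.87 and 3.76 in HSC + TBI. The TBI rats lay above the controls, and the HSC + TBI rats spread over the ranges of both, with HSC + TBI 2 beside the TBI rats. Lgr5 was above background on all 3 TBI arrays and on 2 arrays of each other group, and not on control 3. Like Wnt1 it passed the filter on brightness through its TBI arrays alone, so that its direction supports nothing. The log2 fold change in TBI vs control was 1.20 ± 0.51 (95% interval 0.03 to 2.36, limma adjusted p = 0.187) and in HSC + TBI vs TBI -1.06 ± 0.51 (adjusted p = 0.355). With normexp these values of Lgr5 were 0.34 and -0.24. Without control 3 its TBI vs control value was 0.82 (limma adjusted p = 0.443).

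Rnf43 gave 4.29, 3.92 and 4.44 in control, 4.38, 4.78 and 6.08 in TBI and 5.31, 4.53 and 4.19 in HSC + TBI. One TBI rat, TBI 3, stood far above the rest. The log2 fold change of 0.86 ± 0.44 (limma adjusted p = 0.263) was 0.36 without TBI 3 and 0.21 with normexp.

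HSC + TBI 2, the array on a slide of its own, had the highest value of its group for Fzd2, Wnt7a and Lgr5. Whether the slide had a part in this was not tested.

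No tested probe of the destruction complex, of Ctnnb1 or of the Dishevelled genes was called with all rats. The destruction complex had 5 tested probes, with log2 fold changes from -0.06 to 0.39 in TBI vs control and from -0.06 to 0.22 in HSC + TBI vs control, and none was called. Axin1, its scaffold, moved least, at 0.03 ± 0.10 and 0.00 ± 0.10, and Gsk3b, its kinase, at -0.06 ± 0.11 in each. Both Apc probes lay between 0.04 and 0.22 in the 3 comparisons.

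Axin2, a scaffold that is itself induced by β-catenin and serves as a feedback brake, gave 7.01, 7.22 and 6.97 in control, 7.98, 7.84 and 6.55 in TBI and 7.0, 6.89 and 7.30 in HSC + TBI. In TBI 1 and TBI 2 it was higher than in any other rat, and in TBI 3 it was lower than in any other rat. With all rats the log2 fold change was 0.39 ± 0.34 (95% interval -0.38 to 1.16, limma adjusted p = 0.509). Without TBI 3 it was 0.84 in TBI vs control (limma adjusted p = 0.0183) and -0.84 in HSC + TBI vs TBI (adjusted p = 0.0422), both called. The count of called members in TBI vs control was 2 of 22 with and without TBI 3, beside 7.25% and 9.43% of all tested probes. Without TBI 3 they were Axin2 and Wnt1, and Fzd2 and Lrp5 then had limma adjusted p of 0.0768 and 0.0590. Wnt1 had passed the filter on brightness through its TBI arrays alone. In HSC + TBI vs TBI without TBI 3, Axin2 was the 1 called member of 22, beside 2.33% of all tested probes. TBI 3 was also the array with the largest share of probes above background.

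Ctnnb1, which encodes β-catenin, gave 7.82, 8.01 and 8.11 in control, 7.98, 7.96 and 8.40 in TBI and 7.82, 7.92 and 7.97 in HSC + TBI with its brighter probe. The groups overlapped. The log2 fold change in TBI vs control was 0.14 ± 0.15 (95% interval -0.20 to 0.48, limma adjusted p = 0.605), and the other probe gave -0.13 ± 0.17 (adjusted p = 0.666), so the 2 probes differed in sign and neither passed the test. These values are of mRNA and do not measure the β-catenin protein, on which the pathway acts.

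Of the Dishevelled genes, which relay the signal from Frizzled, Dvl1 lay between -0.06 and 0.08 in the 3 comparisons. Dvl2 was lower in each TBI rat (9.53, 9.26 and 8.94) than in each control (9.55, 9.70 and 9.68), by -0.40 ± 0.19 (limma adjusted p = 0.227). Dvl3 was 0.49 ± 0.21 higher in HSC + TBI than in control (limma adjusted p = 0.254). It was above background on 1 control array and on every irradiated one. Dvl3 thus passed the filter on brightness through the irradiated groups alone, so that its direction supports nothing. Of the secreted antagonists, which bind Wnt proteins or their co-receptor, only Sfrp2 could be tested, and its 1 tested probe of 3 differed by -0.33 ± 0.23 in TBI vs control (limma adjusted p = 0.414). Lef1, the one TCF/LEF factor with a matched probe, lay between 1.30 and 2.17 in all rats and was not well above background in any.

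In all, 5 of the 22 probes had an unadjusted limma p under 0.05 in TBI vs control (Fzd2, Lrp5, Wnt7a, Wnt1 and Lgr5), against 25.5% of all tested probes. The TBI and control rats did not overlap for 5 probes (Fzd2, Lrp5, Wnt7a and Lgr5 higher, Dvl2 lower), against 28.9% of all tested probes. Over the 17 probes above background on every array, which leave out Wnt1 and Lgr5, these counts were 3 and 4. Neither count exceeded the share over the whole array.

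**Figure D3:**
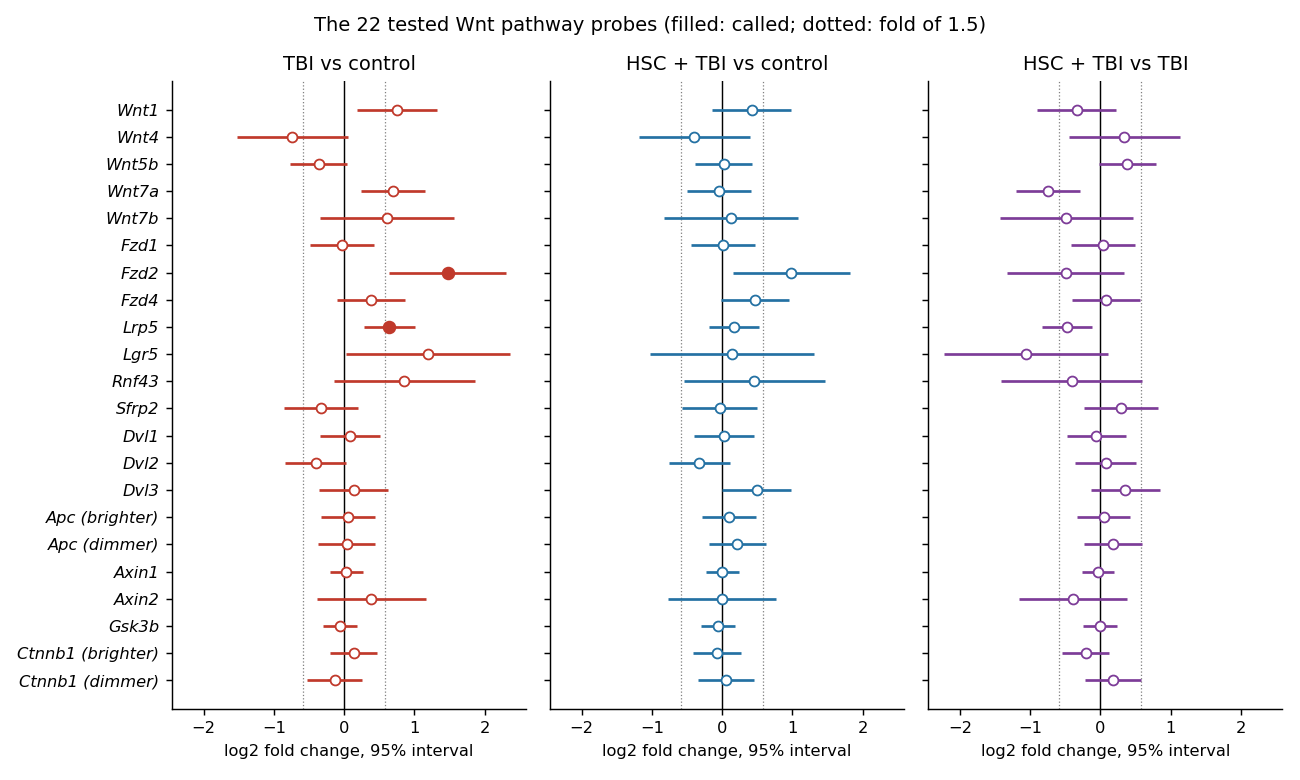
log2 fold change with 95% interval of the 22 tested Wnt pathway probes in the 3 comparisons, ordered by role from ligands to β-catenin. Filled points were called and dotted lines mark a fold of 1.5. Only Fzd2 and Lrp5 in TBI vs control are filled, and the intervals of Dvl1, Apc, Axin1, Gsk3b and Ctnnb1 include 0 in every comparison.

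HSC + TBI was compared with control and with TBI to ask which of these levels stood apart in irradiated rats that had received HSC. No member was called against control, where limma called 3.23% of all tested probes, and no member was called against TBI, where it called 0.796%. In each of these comparisons 2 members had an unadjusted limma p under 0.05, Fzd2 and Dvl3 against control and Wnt7a and Lrp5 against TBI, while 19.6% and 16.3% of all tested probes did. The groups did not overlap for Fzd2 and Fzd4 against control and for Wnt7a and Lrp5 against TBI, beside 31.7% and 21.4% of all tested probes. The median log2 fold change of the members was 0.04 against control and -0.02 against TBI, with 0.05 and 0.06 over all tested probes. The comparisons share samples and are not independent of each other. An F-test over the 3 groups in limma passed no member at an adjusted p of 0.05 and passed 6.89% of all tested probes.

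**Figure D4:**
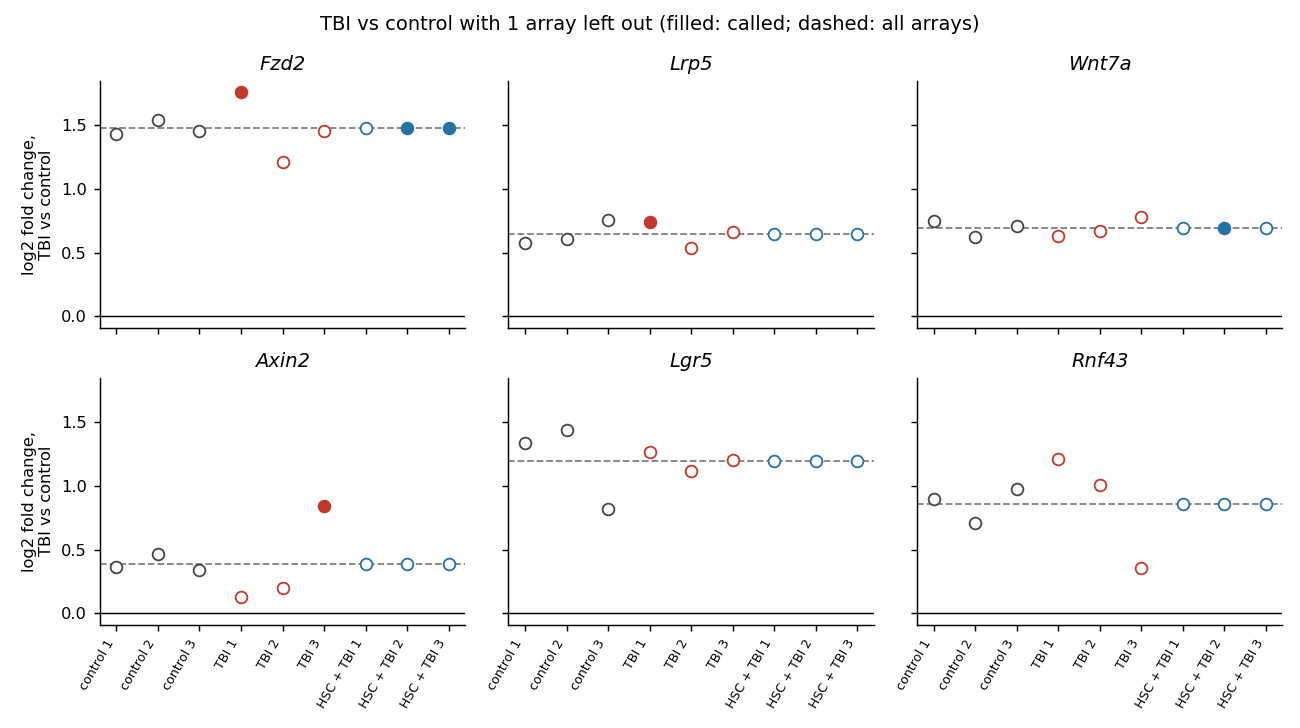
log2 fold change of 6 Wnt pathway genes in TBI vs control with each of the 9 arrays left out in turn, coloured by the group of the array left out. Filled points were called and the dashed line is the value with all arrays. The values stay above 0 throughout, Fzd2 and Lrp5 are filled in 3 and 1 of 9 fits, and Axin2 is filled only without TBI 3.

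Other genes of the pathway were taken from a fixed list of 59, of which 45 had a probe, and 55 of their 63 probes were tested. In TBI vs control 1 of the 55 (1.82%, beside 7.25% overall) was called, a probe of Pygo2, which links β-catenin to chromatin, and none was called in the other comparisons. This Pygo2 probe gave 5.14, 5.12 and 5.07 in control, 6.25, 6.21 and 5.46 in TBI and 5.20, 5.06 and 5.24 in HSC + TBI, so that each TBI rat lay above every other rat. It rose by 0.86 ± 0.20 on the log2 scale (limma adjusted p = 0.0359), and of the fits without 1 array only that without TBI 3 called it (1.12, adjusted p = 0.00239). With the replicate number as a block Pygo2 was not called (limma adjusted p = 0.0575), and the 1 called probe was one of Dact2, a Dishevelled-binding protein, which was lower in TBI than in control (-0.77, adjusted p = 0.0233). The second Pygo2 probe gave 0.34 ± 0.10 (limma adjusted p = 0.0677). Without TBI 3 the list had 5 called probes of 55 in TBI vs control, where 9.43% of all tested probes were called. In HSC + TBI vs TBI it then had 3, where 2.33% of all tested probes were called.

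The largest differences in that list that did not pass were those of Sfrp5 and Celsr3. Sfrp5, a secreted antagonist, differed by 1.0 ± 0.31 in TBI vs control (limma adjusted p = 0.0891), on means of 3.32 and 4.32. No control array was above background for Sfrp5. Its fold was 1.39 with dim control values raised to the lowest signal above background. Celsr3, a planar polarity cadherin, differed by 0.97 ± 0.51 (limma adjusted p = 0.276). Tle3, a co-repressor that binds TCF factors, was 5.87, 5.94 and 5.94 in HSC + TBI, below all other rats, and missed the threshold against control (-0.56 ± 0.13, limma adjusted p = 0.0529). Rspo3, an R-spondin, Porcn, which attaches the lipid to Wnt proteins, Wls, which carries them to the cell surface, and Notum, which inactivates them, were tested and not called.

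Liver genes that depend on Wnt signals around the central vein were followed with 23 tested probes of 18 genes. None was called in TBI vs control, beside 7.25% of all tested probes, and their median log2 fold change was 0.27 and 16 were above 0. Glul, glutamine synthetase and the classical marker of these cells, differed by 0.38 ± 0.26 and 0.55 ± 0.31 with its 2 probes (limma adjusted p = 0.403 and 0.303). Tbx3 differed by 0.70 ± 0.33 (limma adjusted p = 0.226), and both probes of Nr1i3, the constitutive androstane receptor, were lower in every TBI rat than in every control without passing the test (-0.88 ± 0.28 and -0.98 ± 0.28, adjusted p = 0.0934 and 0.0696), a separation seen for 28.9% of all tested probes. Cyp7a1, the rate-limiting enzyme of bile acid synthesis, was the 1 called gene of the list and only in HSC + TBI vs control (4.35% of the 23 probes, beside 3.23% overall). It gave 11.82, 10.88 and 11.22 in control, 11.80, 12.40 and 11.54 in TBI and 12.42, 12.67 and 12.66 in HSC + TBI (1.27 ± 0.28, limma adjusted p = 0.0451), and 3 of 9 fits without 1 array called it.

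**Figure D5:**
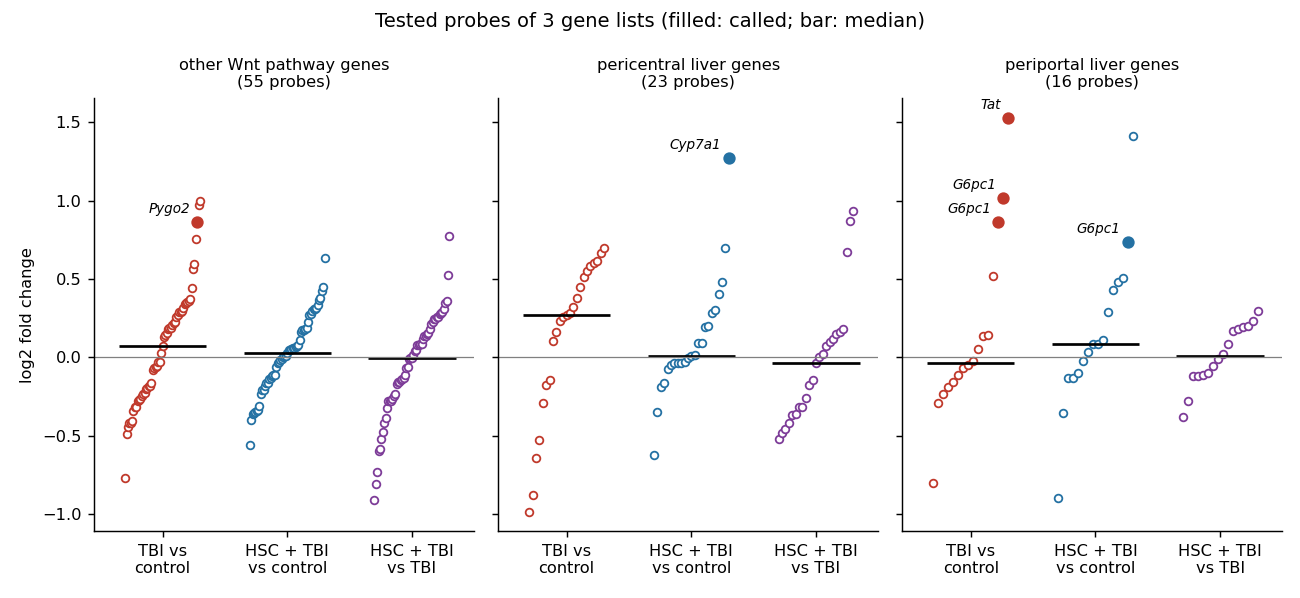
log2 fold change of every tested probe of 3 gene lists in the 3 comparisons, sorted within each comparison. Filled points were called and bars are medians. A Pygo2 probe in TBI vs control, Cyp7a1 in HSC + TBI vs control, and probes of Tat and G6pc1 are the filled points.

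Whole liver holds several cell types, and in such samples fewer cells of a type and less RNA per cell cannot be told apart. All 16 hepatocyte marker probes were above background on every array and none was called. Of 9 tested T cell probes 3 were called lower in TBI vs control (Cd2, Cd3g and a probe of Il7r), 33.3% beside 7.25% of all tested probes, while Cd4 and Lck had values of 0.71 and 0.55 that did not pass the test. In HSC + TBI vs control only Cd3g was called lower (11.1%, beside 3.23%). In HSC + TBI vs TBI Cd2 was called higher (11.1%, beside 0.796%), on means of 3.86 and 1.38 and at least 2.06-fold, since no TBI array was above background. The summed signal of the T cell list was 685.3 to 1066 in control, 389.9 to 585.6 in TBI and 391.7 to 464.7 in HSC + TBI. The T cell genes Cd3e, Cd5 and Cd247 were not well above background on any array, whereas every endothelial, stellate and Kupffer marker with a probe was above it on all arrays. The other lists were summed over all their probes, with ranges in the order control, TBI and HSC + TBI. For endothelial cells these were 18920 to 23010, 25810 to 28700 and 22850 to 25090 (0 of 9 called in TBI vs control). For stellate cells and fibroblasts they were 21530 to 26060, 17090 to 27930 and 18120 to 20870. In TBI vs control 2 of 13 stellate probes were called lower, both of Lrat (15.4%, beside 7.25% of all tested probes). For Kupffer cells the sums were 95770 to 151000, 99850 to 186300 and 70040 to 76390 (0 of 10 called). The endothelial sum, like Lrp5, Wnt7a and Lgr5, was higher in every TBI rat than in every control. The mean log2 signal of the same list overlapped, at 9.18, 9.43 and 9.14 in control and 9.32, 9.56 and 9.45 in TBI. The part of these cells in the TBI vs control values was not tested. The Kupffer list was lower in HSC + TBI than in TBI with all 10 probes. Of these, 8 had an unadjusted limma p under 0.05, beside 16.3% of all tested probes. None was called, beside 0.796%. The part of these cells in the HSC + TBI vs TBI values was likewise not tested.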

How the data were processed

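The members and gene lists were chosen with earlier results of these data known. RNA from 9 rat livers was hybridised by the authors to one-colour Agilent arrays (submitters' notes name Feature Extraction 10.7, the file headers 10.7.3.1), and the deposited scanner intensity values are processed signals, already background-corrected. The authors' deposited log2 value table, quantile normalized by them, served as an alternative. Here spots with outlier flags were set missing, processed signals were floored at 1, taken to log2 and quantile normalized over 43379 non-control spots, and spots of a probe were averaged. A probe was above background where more than 0.5 of its spots were flagged so. Where no array of a group was above background, a fold given as at least had its dim values raised to the lowest signal above background. Such a fold does not carry the spread between rats. limma 3.58.1 in R 4.3.3 (lmFit, eBayes) fitted the 3 groups over 25369 probes with Benjamini-Hochberg adjustment. Probes were named by RefSeq transcript accession through a GRCr8 table (16968 of 41012). An exact permutation test of 3 against 3 arrays cannot go below p = 0.1, so none was used. The fit was tested on simulated data. Values in every array are given for called members, for members with an unadjusted p under 0.05, a fold of at least 1.5 and no overlap, and for a fixed core set. Members outside this rule (Wnt1, Wnt7b, Wnt4, Fzd4 and Dvl2) were added, and likewise Tle3, Glul and other list genes that were not called, after their values were seen. Array number, not read depth, limits precision. Alternatives were other normalizations, filters, tests, blocks and fits without 1 array.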

Additional observations from a re-analysis of the deposited data

How the results depend on the processing

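The count of called members in TBI vs control (2) was 0 with normexp background correction, where 2.62% of all tested probes were called. It was 0 without a filter on brightness (4.36% of all 41012 probes). By the methods' t-test after Benjamini-Hochberg adjustment it was 0 too, and that test called only 0.0276% of all tested probes. It was 8 with slide as a random block and 0 to 2 in fits without 1 array (0 without control 1, 2 or 3, TBI 2 or HSC + TBI 1, and 1 without HSC + TBI 3). The fit with only the 2 compared groups called Wnt7a and Fzd2 (4.63% of all tested probes), as did that without HSC + TBI 2 (6.69%). The methods' t-test with no adjustment called 3 (Wnt7a, Fzd2 and Lrp5), where it called 8.36% of all tested probes. The estimated correlation within slides was -0.327, and a negative value shrinks the error of a mean over arrays of 1 slide. Control and TBI arrays each shared 1 slide, so this fit cannot tell slide from treatment. Over all tested probes it called 17.8% in TBI vs control, 10.1% in HSC + TBI vs control and 8.89% in HSC + TBI vs TBI. The main fit called 7.25%, 3.23% and 0.796%. Fits without 1 array called 3.5% to 9.43% of all tested probes in TBI vs control and 0.11% to 3.74% in HSC + TBI vs TBI. The 75th percentile shift, the authors' normalized values, keeping outlier spots, the brightest probe of each gene and probes above background on all 9 arrays each called Fzd2 and Lrp5. These settings called 6.42% to 7.43% of the probes they tested.

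The count of 0 became 1 with the slide block in HSC + TBI vs control (Fzd2) and in HSC + TBI vs TBI (Wnt7a), and was 0 to 1 in the latter without 1 array. For the F-test (0) it was 1 with normexp, 11 with the slide block and 0 to 2 without 1 array. The share of all tested probes that passed the F-test in the alternatives is not given here, so its counts there are no result about the members. For the other pathway genes it was 0 with no filter and 0 to 5 without 1 array in TBI vs control (1), 1 with the 75th percentile shift in HSC + TBI vs control (0) and 0 to 3 without 1 array in HSC + TBI vs TBI (0).

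For control with TBI, correlations of deviations were 0.098 to 0.191 at equal replicate numbers and -0.121 to 0.017 at unequal ones. Each equal pair thus lay above each unequal pair. For control with HSC + TBI they were 0.001 to 0.015 and -0.046 to 0.041. For TBI with HSC + TBI they were -0.144 to -0.016 and -0.087 to 0.144. Whether the numbers mark a shared step was not tested, and the main fit did not pair rats. The replicate block called 1 member in TBI vs control (Fzd2), where it called 6.21% of all tested probes, and Lrp5 lost its call (limma adjusted p = 0.0631). It passed 1 member in the F-test and, among the other pathway genes, called a lower Dact2 probe in place of Pygo2.

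The sign changed only for values that had not been called. In HSC + TBI vs control, Wnt7a was 0.031 with normexp and -0.26 to 0.13 without 1 array, Lgr5 was -0.0036 with the slide block and -0.45 to 0.60 without 1 array, and Axin2 was 0.019 with the slide block and -0.12 to 0.086 without 1 array. Without 1 array, Ctnnb1 in TBI vs control was -0.0064 to 0.21 and Rnf43 in HSC + TBI vs TBI was -0.76 to 0.10. Of the 21 member fold changes described, 334 of the alternative values kept direction and side of the threshold, 20 lost a call, 9 gained one and 12 changed sign. Only Fzd2 and Lrp5 in TBI vs control had a call to lose, and all 20 losses were theirs. Fzd2 lost its call in 8 alternatives and kept it in 10. Lrp5 lost its call in 12 and kept it in 6. Dim probes limit the ligands, 10 of 19 of which were above background on no array.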

Other observations

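Periportal genes, which lie at the other end of the liver lobule from the Wnt-dependent ones, held 3 called probes of 16 in TBI vs control, 18.8% beside 7.25% over all tested probes. G6pc1, the last enzyme of glucose release, rose with both probes. The brighter gave 15.24, 15.13 and 14.92 in control, 15.87, 15.80 and 16.21 in TBI and 15.62, 15.57 and 15.54 in HSC + TBI (TBI vs control 0.86 ± 0.14, limma adjusted p = 0.0105), and the other was up-regulated in TBI (1.01 ± 0.15, adjusted p = 0.00662) and in HSC + TBI (0.74 ± 0.15, adjusted p = 0.036). Both G6pc1 probes were called in TBI vs control in all 9 fits without 1 array. Tat, which starts tyrosine breakdown, gave 9.13, 10.06 and 8.83 in control, 10.53, 10.84 and 11.24 in TBI and 11.12, 10.71 and 10.41 in HSC + TBI (TBI vs control 1.53 ± 0.33, limma adjusted p = 0.0287), and 5 of 9 fits without 1 array called it. Sds, which breaks down serine, differed by -0.80 ± 0.27 in TBI and -0.90 ± 0.27 in HSC + TBI against control and was not called (limma adjusted p = 0.104 and 0.112). The median over the 16 probes was -0.04 in TBI vs control.

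The B cell list had 3 tested probes, which did not move one way. Cd79b, a B cell receptor subunit, was above background in every control rat and in no irradiated rat, and was called at least 4.97-fold lower in TBI (means 5.16 and 2.24, limma adjusted p = 0.00317) and at least 2.90-fold lower in HSC + TBI (mean 1.9, adjusted p = 0.0026). Cd79b passed the filter on brightness through its control arrays alone, so that its direction supports nothing. Both probes of Cd22, a B cell surface receptor, had higher means in TBI than in control and were not called (0.53 ± 0.30 and 0.55 ± 0.17, limma adjusted p = 0.303 and 0.089). The median of the 3 was 0.53 in TBI vs control, and the summed signal of the list was 231.9 to 247.3 in control, 197.1 to 347.2 in TBI and 154 to 174 in HSC + TBI. Of 6 tested cholangiocyte probes, 1 of Cldn4 rose in TBI vs control (0.98 ± 0.20, limma adjusted p = 0.0229), while the brighter Cldn4 probe gave 0.21 ± 0.23 (adjusted p = 0.61).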
